A study of Homo sapiens with 24 samples.

Results

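The 94 genes described here carry a zinc-finger symbol outside the large ZNF series. They were picked by a rule on the symbol, chosen with earlier results of these data known. The symbol had to start with ZBTB, ZSCAN, ZKSCAN, ZFP, ZC3H, ZSWIM, ZMYM or ZCCHC followed by a digit. They are 94 of the 9822 genes in the deposited table, and comprise 29 ZBTB, 14 ZSCAN, 6 ZKSCAN, 13 ZFP, 14 ZC3H, 7 ZSWIM, 4 ZMYM and 7 ZCCHC genes. A further 352 genes carry a ZNF symbol and serve below as a comparison. The prefix is not a guarantee of protein type: ZSCAN16-AS1 is annotated as an antisense non-coding RNA, ZSCAN12P1 as a transcribed pseudogene, and ZBTB8OS is named for its place opposite a ZBTB8 gene rather than for a zinc finger.

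The study exposed MOLT4 cells, an established human T-cell acute lymphoblastic leukaemia line, to SK-3-91, a compound labelled as a degrader of many kinases, or to DMSO. The groups were SK-3-91 at 1, 4 and 8 h and DMSO at 1, 4 and 8 h, with 4 bulk RNA-seq libraries in each of the 6. All 24 libraries came from the same unmodified line in the same growth medium, and no dose is given in the labels. Whether replicates came from separate cultures is not stated, so p-values below reflect the spread among libraries of a group, which could be technical alone.

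A zinc finger is a short fold held by a zinc ion, and its type decides what it binds. ZBTB proteins join C2H2 fingers, which read DNA, to a BTB domain that pairs the proteins and recruits corepressors; ZSCAN and ZKSCAN proteins join C2H2 fingers to a SCAN dimerisation domain, and ZKSCAN proteins mostly carry a repressive KRAB domain as well. ZC3H proteins have CCCH fingers that bind RNA, ZCCHC proteins have knuckles found in RNA-decay and RNA-tailing factors, ZMYM proteins act with chromatin complexes, and ZSWIM proteins carry a SWIM domain that occurs in ubiquitin-ligase subunits. The ZFP symbols are mixed: most name C2H2 factors, but ZFP36, ZFP36L1 and ZFP36L2 are CCCH proteins that bind AU-rich elements and bring the deadenylase to the messenger RNA. In T-lineage cells several of these genes, among them ZBTB1, ZBTB7A and the ZFP36 family, are known for roles in lymphoid development.

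Counted reads ranged from 6.863 to 14.626 megareads per library, and the lowest total was SK-3-91 at 8 h replicate 3. SK-3-91 libraries held 13.574 to 13.647 megareads at 1 h, 10.644 to 10.87 at 4 h and 6.863 to 8.963 at 8 h. DMSO libraries held 13.567 to 14.626 over all times. TMM factors were 0.8842 to 0.9014 in SK-3-91 at 4 h, 0.7901 to 0.8137 at 8 h and 1.078 to 1.104 in DMSO. Depth thus went with treatment and time and cannot be separated from them. Of 11 T-lineage markers 10 were in the table, and their summed CPM (counts per megaread of the library, scaled by the TMM method of edgeR) was 3050 to 4290 in SK-3-91 libraries and 2860 to 3390 in DMSO libraries. No myeloid, erythroid or epithelial marker of the 13 listed was in the table used here. CD79A, a B-cell gene, summed to 9.61 to 30.5 CPM in SK-3-91 and 6.35 to 10.4 CPM in DMSO libraries, and PECAM1, an endothelial gene, to 15.7 to 40.3 CPM in SK-3-91 and 32.9 to 43.7 CPM in DMSO libraries; their part in the results was not tested.

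Without treatment these genes were of modest abundance. Per kilobase of the deposited gene width, their level in the 12 DMSO libraries had a median of 8.24 CPM, against 5.58 CPM for the ZNF-symbol genes and 12.1 CPM for all genes. The ZC3H genes had the highest median level of any prefix, 18.0 CPM per kilobase, and the ZSWIM genes the lowest, 5.48 CPM. At the ends of the range of single genes were ZFP36L2 with 247 CPM per kilobase and ZBTB46 with 0.497 CPM per kilobase. In DMSO alone, edgeR called 23 members lower at 8 h than at 1 h (24.7% of all genes were) and 25 higher (22.6% of all genes), with a member median log2 fold change of -0.02, so these counts lie near those of all genes.

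SK-3-91 lowered most of these genes, and from the first hour. At 1 h 65 of 94 members (69.1%) fell, where 29.4% of all 9822 genes did, and 4 rose (4.26%), where 24.9% of all genes did. At 4 h 67 fell (71.3%, all genes 45.9%) and 23 rose (24.5%, all genes 42%), and at 8 h 62 fell (66.0%, all genes 48.1%) and 27 rose (28.7%, all genes 41.3%). The median log2 fold change of the members was -0.47, -0.88 and -0.81 at 1, 4 and 8 h, beside 0.01, -0.05 and -0.11 for all genes and -0.65, -1.04 and -0.87 for the ZNF-symbol genes. These are calls of edgeR's quasi-likelihood test at a Benjamini-Hochberg adjusted p under 0.05 over all genes. In bulk RNA a loss of cells of one type and less RNA per cell cannot be told apart, and TMM expresses each gene relative to the others. Without scaling factors the median of all genes moves by itself to -0.35 at 4 h and -0.54 at 8 h, and the members split into 74 lower and 12 higher at 4 h and 69 lower and 18 higher at 8 h.

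The decreases were also large. At 1 h 15 members fell at least 2-fold (16%, against 3.25% of all genes) and 0 rose as much (0.0509% of all genes). At 4 h 43 fell (45.7%, all genes 18.2%) and 5 rose at least 2-fold (5.32%, all genes 9.2%), and at 8 h 42 fell (44.7%, all genes 23.5%) and 12 rose at least 2-fold (12.8%, all genes 16.8%). All 5 members past 2-fold upward at 4 h, and 7 of the 12 at 8 h, carry a ZBTB symbol. Across the 3 times 43 members fell at every time (45.7%, against 16.3% of all genes and 59.1% of ZNF-symbol genes), 19 fell at 1 h and rose at 8 h (20.2%, all genes 9.93%, ZNF 15.9%), 20 rose at both 4 and 8 h (21.3%, all genes 33.2%), and 16 were not called at 1 h and fell at 8 h (17.0%, all genes 23.4%). ZCCHC14 was the only member that edgeR called at no time with TMM factors. Without scaling factors it was called lower at 4 h (-0.56) and 8 h (-0.71). It is named here after its values were seen. The groups with a rise are smaller without scaling factors, at 13 members that fell at 1 h and rose at 8 h and 10 that rose at both 4 and 8 h. With a test against a minimum fold of 1.5, 16 members fell at every time, 5 fell at 1 h and rose at 8 h, 6 rose at both 4 and 8 h, and 34 were not called at 1 h and fell at 8 h.

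**Figure D1:**
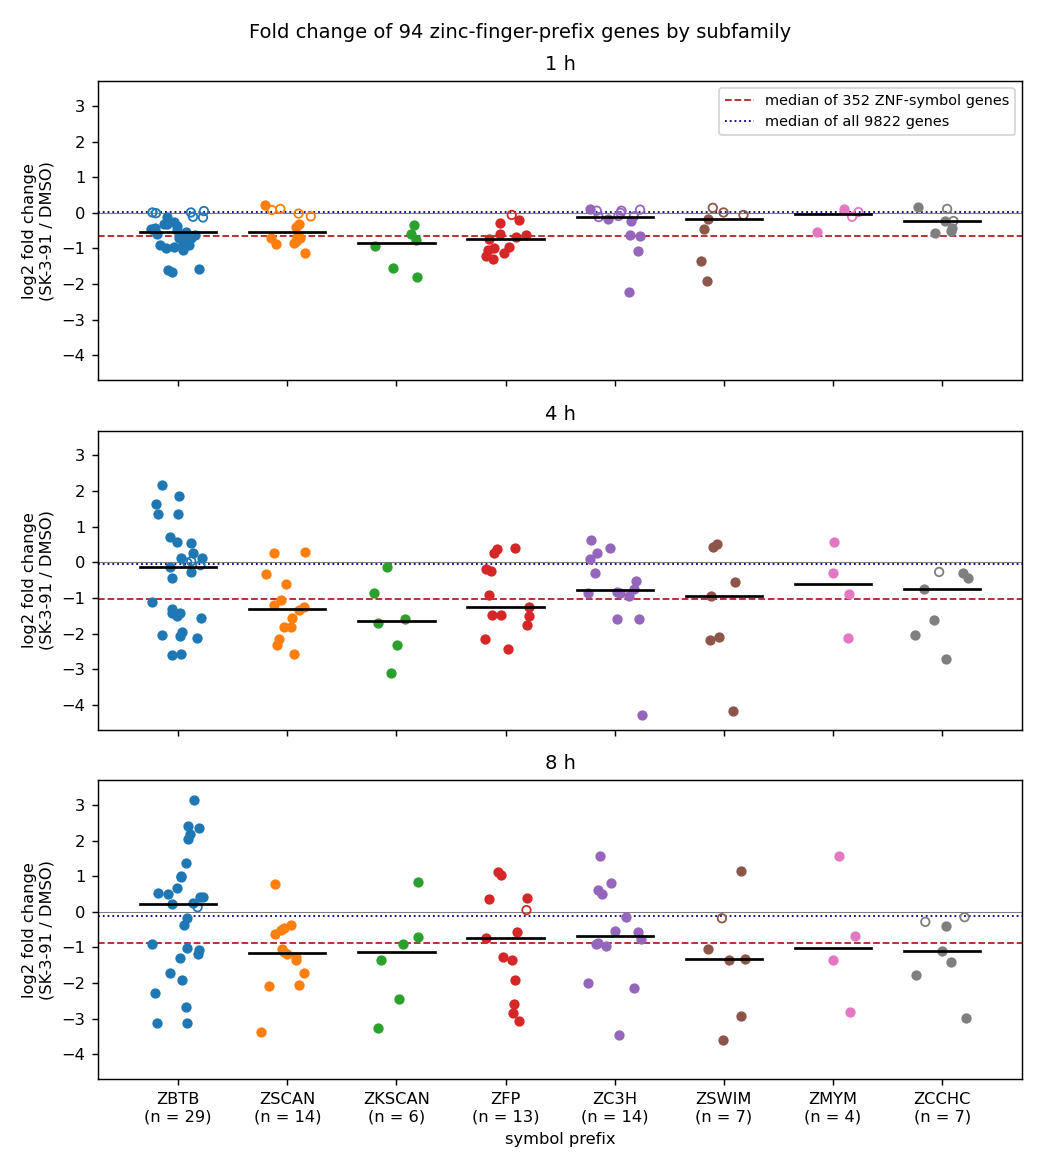
Log2 fold change of SK-3-91 over DMSO (vertical axis) for each of the 94 genes at 1, 4 and 8 h, by symbol prefix (horizontal axis); filled points passed edgeR's test, open points did not, the black bar is the prefix median, the dashed line the median of 352 ZNF-symbol genes and the dotted line that of all 9822 genes. At 1 h nearly all called points lie below 0; at 8 h the ZBTB genes spread from -3.13 to 3.14, with their median at 0.22, or -0.21 without scaling factors.

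The response itself differed between the times. From 1 to 4 h the log2 fold change of 51 members went down further (39.9% of all genes did) and that of 29 went up (40.6% of all genes), by a test of the difference in the same model. From 4 to 8 h 18 members went down further (33% of all genes) and 38 went up (35.6% of all genes). Both steps use the 4 h libraries, so they are not independent of each other. By prefix, the ZBTB genes led the upward steps, with 16 of 29 going up from 1 to 4 h and 17 from 4 to 8 h, while 11 of 14 ZSCAN genes went down from 1 to 4 h.

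The 3 members with the largest fall at 1 h were ZC3H10, ZSWIM3 and ZKSCAN4. ZC3H10, a CCCH RNA-binding protein studied in mouse cells for its part in mitochondrial function, had 3.18, 3.61, 4.30 and 3.64 CPM in SK-3-91 and 18.7, 16.7, 15.9 and 17.1 CPM in DMSO libraries at 1 h. At 4 h it had 1.36, 0.933, 0.625 and 1.43 CPM in SK-3-91 and 19.8, 21.4, 23.5 and 20.4 CPM in DMSO libraries, and at 8 h 1.55, 1.66, 1.66 and 2.46 CPM in SK-3-91 and 19.7, 19.6, 20.9 and 20.3 CPM in DMSO libraries. Every treated library lay far below every DMSO library at each time. Its log2 fold changes were -2.21 ± 0.10, -4.28 ± 0.15 and -3.45 ± 0.15 (SE, n = 4 per group) with edgeR adjusted p of 5e-21, 7.9e-27 and 1e-23. The 4 treated libraries together held 42 counts of ZC3H10 at 4 h and 49 at 8 h. At such counts the SE, which is derived from the test statistic, can be too small. Between 4 and 8 h its response rose by 0.83 ± 0.30 (adjusted p = 0.014). In GENCODE 29 a gene on the other strand overlaps 11.8% of its exon sequence.

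ZSWIM3, a SWIM-domain gene, behaved much like it. At 1 h it had 4.08, 4.49, 4.43 and 4.33 CPM in SK-3-91 and 18.6, 17.4, 14.6 and 14.6 CPM in DMSO libraries. At 4 h the values were 0.209, 1.04, 0.834 and 1.64 CPM in SK-3-91 and 15.8, 16.9, 17.8 and 17.9 CPM in DMSO libraries, and at 8 h 0.843, 1.24, 2.40 and 1.16 CPM in SK-3-91 and 15.3, 15.7, 19.0 and 16 CPM in DMSO libraries. The groups were wide apart at all 3 times, and at 4 h the 4 treated libraries together held 36 counts of the gene. The log2 fold changes were -1.91 ± 0.12, -4.18 ± 0.19 and -3.60 ± 0.20 (edgeR adjusted p = 1.2e-16, 1.4e-22 and 8.7e-20). The step from 1 to 4 h, -2.27 ± 0.28, was the deepest of any member, shared with ZCCHC2 at -2.27 ± 0.17. ZSWIM1, the neighbour of ZSWIM3 on chromosome 20, had log2 fold changes of -1.35, -2.17 and -1.36.

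The proximal promoters of these genes, as RefSeq gives them on GRCh38.p14, are shown with those of ZBTB34 and ZBTB46, the members with the largest and the fourth largest rise at 8 h, because the pairs moved in opposite directions at 8 h. Each covers 250 bases before to 50 bases after the annotated start, 5′ to 3′ on the gene's strand. Capitals mark the motifs searched on both strands: TATAAA (the TATA box), CCAAT (the CCAAT box), GGGCGG (the GC box), CCGGAAG (an ETS core), GCATGCGC (an NRF1 core), CTCGCGAG (a core of the ZBTB33 palindrome), CACGTG (the E box) and TGACGTCA (the CRE). ZC3H10 lies at chr12:56118016-56118315 (plus strand), ZSWIM3 at chr20:45857364-45857663 (plus), ZBTB34 at chr9:126860389-126860688 (plus) and ZBTB46 at chr20:63831215-63831514 (minus).
ZC3H10: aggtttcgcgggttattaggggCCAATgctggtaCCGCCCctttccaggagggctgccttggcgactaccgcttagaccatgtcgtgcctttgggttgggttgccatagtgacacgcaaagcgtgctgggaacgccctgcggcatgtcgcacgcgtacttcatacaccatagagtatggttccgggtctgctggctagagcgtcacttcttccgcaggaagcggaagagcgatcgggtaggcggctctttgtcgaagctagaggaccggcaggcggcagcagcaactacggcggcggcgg
ZSWIM3: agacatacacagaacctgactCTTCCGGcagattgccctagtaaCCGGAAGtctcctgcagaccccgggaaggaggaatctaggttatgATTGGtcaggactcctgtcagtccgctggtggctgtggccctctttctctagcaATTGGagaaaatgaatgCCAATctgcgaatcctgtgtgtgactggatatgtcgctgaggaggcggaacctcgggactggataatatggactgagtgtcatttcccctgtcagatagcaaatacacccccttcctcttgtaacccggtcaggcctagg
ZBTB34: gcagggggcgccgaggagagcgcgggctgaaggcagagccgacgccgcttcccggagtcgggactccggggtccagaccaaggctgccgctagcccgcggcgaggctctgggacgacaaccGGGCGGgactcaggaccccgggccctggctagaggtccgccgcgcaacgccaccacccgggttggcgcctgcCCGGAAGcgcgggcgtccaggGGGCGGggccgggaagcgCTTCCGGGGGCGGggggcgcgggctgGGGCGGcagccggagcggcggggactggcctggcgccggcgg
ZBTB46: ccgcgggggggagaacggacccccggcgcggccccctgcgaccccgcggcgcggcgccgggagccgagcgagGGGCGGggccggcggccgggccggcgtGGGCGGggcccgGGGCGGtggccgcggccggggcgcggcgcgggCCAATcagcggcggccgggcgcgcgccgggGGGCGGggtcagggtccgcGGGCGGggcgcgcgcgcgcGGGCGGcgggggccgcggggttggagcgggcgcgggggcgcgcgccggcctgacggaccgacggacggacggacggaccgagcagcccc

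ZC3H10 holds 1 CCAAT box and 1 GC box, and ZSWIM3 holds 3 CCAAT boxes and 2 ETS cores and has only 9 CpG pairs. ZBTB34 holds 4 GC boxes and 2 ETS cores among 42 CpG pairs, an ETS core and a GC box abutting at 1 place, and ZBTB46 holds 6 GC boxes and 1 CCAAT box among 66 CpG pairs. Over the 81 members with a promoter in the table, the shares beside those of all 8103 genes with a promoter were as follows: GC box 71.6% against 71.7%, CCAAT 40.7% against 37.3%, ETS core 28.4% against 21.3%, E box 11.1% against 11%, NRF1 core 7.41% against 6.05%, CRE 6.17% against 3.50%, TATA 2.47% against 4.74% and the ZBTB33 core 2.47% against 2.36%. The 17 promoters of members that fell at 1 h and rose at 8 h had a median GC content of 72.3%, against 64.3% in the 37 of members that fell throughout and 65.7% over all genes. A match of letters describes the window and is not a binding site.

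The ZBTB genes fell together at 1 h and then split. At 1 h 23 of 29 fell (79.3%, all genes 29.4%) and 0 rose (all genes 24.9%), with a median log2 fold change of -0.55. At 4 h 15 fell (51.7%, all genes 45.9%) and 11 rose (37.9%, all genes 42%), with a median of -0.14. At 8 h 13 fell (44.8%, all genes 48.1%) and 15 rose (51.7%, all genes 41.3%), with a median of 0.22. The shares at 4 h and the share that fell at 8 h thus lie near those of all genes. Without scaling factors the 8 h split is 16 lower and 9 higher and the median turns to -0.21. The direction of the ZBTB median at 8 h therefore depends on the scaling. With TMM it lies above the median of all genes, -0.11. Leaving out scaling factors moves all genes by nearly the same amount, so it cannot alter that order. Of the 29, 12 (41.4%, all genes 9.93%) fell at 1 h and rose at 8 h, or 7 without scaling factors and 3 with a minimum fold of 1.5. A further 10 (34.5%, all genes 16.3%) fell at every time. The 0 called higher at 1 h by edgeR is 0 at an unadjusted p under 0.05 as well, and 0 by DESeq2 and by limma.

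ZBTB34 showed the widest swing of any member. It had 13.7, 16.4, 13.8 and 15.4 CPM in SK-3-91 and 30.2, 24.4, 31.3 and 28.7 CPM in DMSO libraries at 1 h, and 113, 110, 124 and 125 CPM in SK-3-91 and 27.8, 25.7, 26.3 and 25.8 CPM in DMSO libraries at 4 h. At 8 h it reached 231, 233, 200 and 254 CPM in SK-3-91, against 26.7, 27.3, 25.3 and 24.5 CPM in DMSO libraries. All treated libraries were below all DMSO libraries at 1 h and above them at 4 and 8 h. Log2 fold changes were -0.95 ± 0.08, 2.16 ± 0.07 and 3.14 ± 0.07 (edgeR adjusted p = 7.3e-13, 2.7e-28 and 2.3e-34), and the step from 1 to 4 h was 3.11 ± 0.11. Its neighbour on chromosome 9, ZBTB43, followed the same course with a smaller amplitude, -0.90 ± 0.07, 0.70 ± 0.07 and 1.36 ± 0.07.

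Other ZBTB genes rose without a large early fall. ZBTB10, known for repressing genes of the Sp family, had 238, 222, 204 and 229 CPM in SK-3-91 and 42.6, 40.4, 42.9 and 40.6 CPM in DMSO libraries at 8 h, a log2 fold change of 2.42 ± 0.05 after -0.32 ± 0.06 at 1 h and 1.86 ± 0.05 at 4 h. ZBTB17, also called MIZ-1, a DNA-binding partner of MYC, had 48.0, 44.9, 42.1 and 43.9 CPM in SK-3-91 and 43.0, 43.3, 45.9 and 47.7 CPM in DMSO libraries at 1 h, where the groups overlapped. At 4 h it had 106, 108, 104 and 114 CPM in SK-3-91 and 41.2, 41.5, 40.1 and 46.1 CPM in DMSO libraries, and at 8 h 209, 216, 197 and 223 CPM in SK-3-91 and 39.8, 40.2, 36.6 and 47.9 CPM in DMSO libraries. The groups were then fully apart, with log2 fold changes of -0.01 ± 0.06 (adjusted p = 0.93), 1.35 ± 0.06 and 2.36 ± 0.06 (2.9e-23 and 6.5e-32). ZBTB46, a marker of classical dendritic cells in mice, was scarce, at 9.84, 10.6, 9.41 and 11 CPM in SK-3-91 and 2.24, 2.39, 1.56 and 2.71 CPM in DMSO libraries at 8 h, a log2 fold change of 2.19 ± 0.15. ZBTB18, a repressor best known from brain development and named after its values were seen, had log2 fold changes of -0.25 ± 0.05, 1.35 ± 0.04 and 2.05 ± 0.04.

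**Figure D2:**
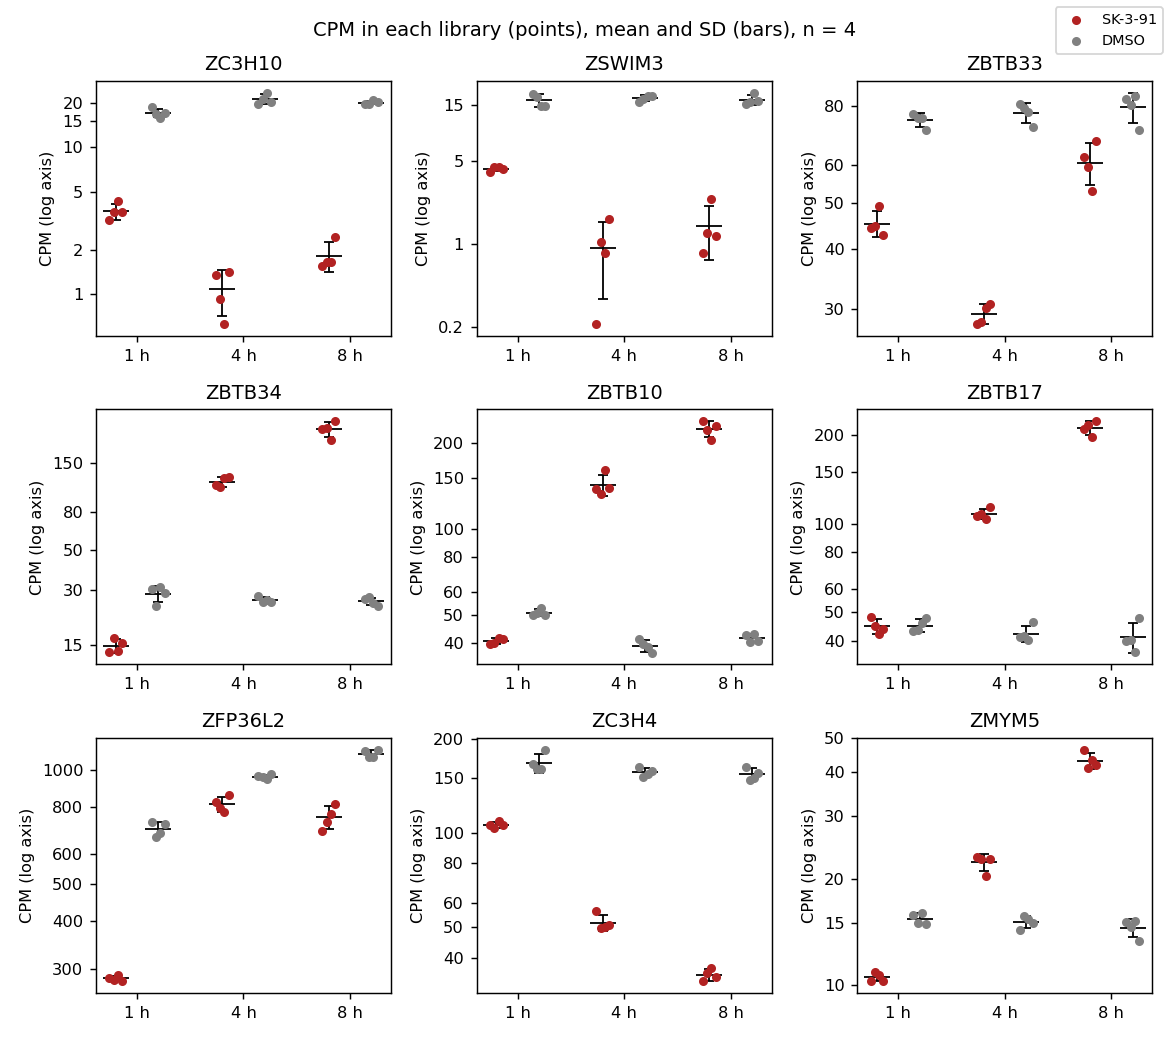
CPM on a log axis in each library for 9 members, with SK-3-91 in red and DMSO in grey at 1, 4 and 8 h; bars are the mean and SD of 4 libraries. ZC3H10, ZSWIM3 and ZC3H4 lie below DMSO at all times, ZBTB34 and ZMYM5 below at 1 h and above at 4 and 8 h, and ZBTB33 and ZFP36L2 recover in part after a first fall.

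Among the ZBTB genes that fell, the time of the fall differed. ZBTB33, also called Kaiso, which binds methylated CpG and a related palindrome, had 44.2, 44.7, 49.2 and 42.8 CPM in SK-3-91 and 76.7, 75.3, 75.5 and 71.1 CPM in DMSO libraries at 1 h. At 4 h it had 27.9, 28.1, 30.1 and 30.7 CPM in SK-3-91 and 80.7, 79.0, 77.5 and 72.3 CPM in DMSO libraries, and at 8 h 62.4, 59.6, 53.1 and 67.6 CPM in SK-3-91 and 82.6, 80.1, 84 and 71.1 CPM in DMSO libraries. Treated libraries were below all DMSO libraries at each time, least so at 8 h. The log2 fold changes were -0.72 ± 0.06, -1.41 ± 0.06 and -0.38 ± 0.06 (edgeR adjusted p = 3.2e-14, 8.9e-23 and 2.5e-07), and the step from 4 to 8 h, 1.02 ± 0.09, was the largest upward step in that interval, with ZBTB17 and ZMYM5 at 1.01 within its error.

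ZBTB3, ZBTB49 and ZBTB5 had most of their fall by the first hour. ZBTB5 had 21.2, 24.0, 24.4 and 22.3 CPM in SK-3-91 and 73.6, 66.3, 67.0 and 69.4 CPM in DMSO libraries at 1 h, a log2 fold change of -1.59 ± 0.06, and -1.95 ± 0.07 and -1.08 ± 0.07 at 4 and 8 h. ZBTB3 had -1.67 ± 0.15, -1.12 ± 0.19 and -1.02 at 1, 4 and 8 h, and ZBTB49 -1.60 ± 0.10, -1.55 ± 0.11 and -1.19. ZBTB14, a repressor that binds GC-rich promoters, fell at 1 h and further at each later time, and ZBTB7C fell late. ZBTB14 had 3.93, 4.41, 5.16 and 4.93 CPM in SK-3-91 and 40.0, 40.8, 37.7 and 41.2 CPM in DMSO libraries at 8 h, with log2 fold changes of -0.73 ± 0.06, -2.03 ± 0.08 and -3.12 ± 0.10 and a further fall of 1.10 on the log2 scale from 4 to 8 h. ZBTB7C had 1.12, 2.07, 0.738 and 1.30 CPM in SK-3-91 and 11.2, 11.6, 11.2 and 13.3 CPM in DMSO libraries at 8 h, log2 fold change -3.13 ± 0.18, after -0.11 ± 0.10 at 1 h (adjusted p = 0.35), when the groups overlapped. ZBTB48, a telomere-binding protein also called TZAP, had log2 fold changes of -0.32 ± 0.08, -2.56 ± 0.11 and -2.27 ± 0.12, the main step coming between 1 and 4 h.

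ZBTB7A, a regulator of lymphoid fate and fetal globin, fell to 76.8, 81.1, 81 and 77.1 CPM in SK-3-91 at 1 h, against 115, 102, 106 and 115 CPM in DMSO libraries, and had 184, 200, 189 and 208 CPM in SK-3-91 and 134, 133, 122 and 150 CPM in DMSO libraries at 8 h. Its log2 fold changes were -0.47 ± 0.05, 0.12 ± 0.05 and 0.54 ± 0.05, of which the 4 h call is lost without replicate 2 (0.12) or replicate 3 (0.09) and turns to -0.18 without scaling factors, while the 8 h value becomes 0.11, no longer called. ZBTB1, needed for lymphocyte development in mice, had log2 fold changes of -0.42 ± 0.05, -0.01 ± 0.05 (adjusted p = 0.82) and 0.25 ± 0.05, the last turning to -0.18 without scaling factors. ZBTB11, studied in zebrafish blood development, had -0.63 ± 0.05, 0.12 ± 0.05 and 0.99 ± 0.05; its 4 h call is lost without replicate 2 (0.11), replicate 3 (0.11) or replicate 4 (0.10) and turns to -0.18 without scaling factors.

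Most genes with a ZSCAN or ZKSCAN symbol fell at each time. Of the 14 ZSCAN genes 9 fell (64.3%, all genes 29.4%) and 1 rose (7.14%, all genes 24.9%) at 1 h. At 4 h 12 fell (85.7%, all genes 45.9%) and 2 rose (14.3%, all genes 42%). At 8 h 13 fell (92.9%, all genes 48.1%) and 1 rose (7.14%, all genes 41.3%). The ZSCAN medians at these times were -0.54, -1.30 and -1.16. Of the 6 ZKSCAN genes 6 fell at 1 h (100%), 6 at 4 h (100%) and 5 at 8 h (83.3%), with medians of -0.84, -1.64 and -1.13. By edgeR 0 rose at 1 or 4 h, also at an unadjusted p under 0.05, and 0 by DESeq2 or limma. At 8 h 1 rose (16.7%). No ZSCAN gene showed the fall at 1 h with a rise at 8 h, which 9.93% of all genes did. The 14 ZSCAN symbols include the non-coding ZSCAN16-AS1 and the pseudogene ZSCAN12P1. Their rises at 4 h were ZSCAN16-AS1 (0.29) and ZSCAN18 (0.25), neither called without scaling factors. The 1 ZSCAN rise at 8 h was ZSCAN16-AS1 (0.78). In 4 ZSCAN genes (ZSCAN2, ZSCAN18, ZSCAN21 and ZSCAN32) and in ZSCAN16-AS1 between 25.2% and 83.5% of exon sequence is overlapped by exons of the other strand, so their counts are uncertain, as are those of ZSWIM4 (48.5%) and of ZC3H11A, which shares 90.9% of its 32-base words with other transcripts. Without these 5 the ZSCAN medians are -0.68, -1.82 and -1.35.

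ZSCAN26 had the deepest late fall of this group, with 2.81, 2.62, 2.95 and 1.30 CPM in SK-3-91 and 23.3, 25.9, 23.7 and 26.7 CPM in DMSO libraries at 8 h. Its log2 fold changes were -0.72 ± 0.07, -2.56 ± 0.10 and -3.37 ± 0.13 (edgeR adjusted p = 1.7e-11, 9.9e-25 and 1.7e-25). ZKSCAN4 had 5.19, 4.43, 5.46 and 2.96 CPM in SK-3-91 and 15.8, 15, 15.4 and 16.7 CPM in DMSO libraries at 1 h, and 1.26, 1.52, 2.03 and 1.45 CPM in SK-3-91 and 13.6, 13.7, 17.5 and 14.4 CPM in DMSO libraries at 8 h. The groups were apart at every time, with log2 fold changes of -1.80 ± 0.13, -3.11 ± 0.17 and -3.25 ± 0.21 (1.4e-15, 1.1e-19 and 4.1e-18). ZKSCAN3, known as a repressor of autophagy and lysosome genes, had log2 fold changes of -0.60 ± 0.10, -2.32 ± 0.13 and -2.46 ± 0.16. ZSCAN31 had -1.12 ± 0.13 at 1 h and -1.82 ± 0.17 at 4 h. ZSCAN18 was among the few to rise early, at 0.22 ± 0.05 and 0.25 ± 0.05 at 1 and 4 h (-0.05 at 4 h without scaling factors), before -0.50 ± 0.06 at 8 h.

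Neighbouring genes did not always move alike. On chromosome 6, 7 members lie in a row with starts within 150 kb of the next: ZSCAN12P1, ZSCAN16-AS1, ZKSCAN8, ZKSCAN4, ZSCAN26, ZSCAN31 and ZKSCAN3. Their 8 h log2 fold changes were -1.04, 0.78, 0.85, -3.25, -3.37, -1.14 and -2.46 in that order, so ZKSCAN8 rose beside ZKSCAN4, which fell. On chromosome 19 ZFP14 and ZFP82 fell alike at 1 h, -1.14 and -1.03, and parted at 8 h, -0.74 and 1.13. On chromosome 13 ZMYM5 and ZMYM2 had 1.57 and -0.69 at 8 h. By contrast ZBTB43 and ZBTB34 (1.36 and 3.14), ZBTB6 and ZBTB26 (0.43 and 0.49), and ZFP69B and ZFP69 (-1.91 and -2.85) had the same sign. Without scaling factors ZBTB6 had -0.0 and ZBTB26 0.06, neither called, so the shared rise of that pair depends on the scaling. ZKSCAN8, ZFP14, ZFP82, ZBTB6, ZBTB26, ZFP69, ZFP69B, ZSCAN12P1 and ZSCAN16-AS1 are named here for their position.

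**Figure D3:**
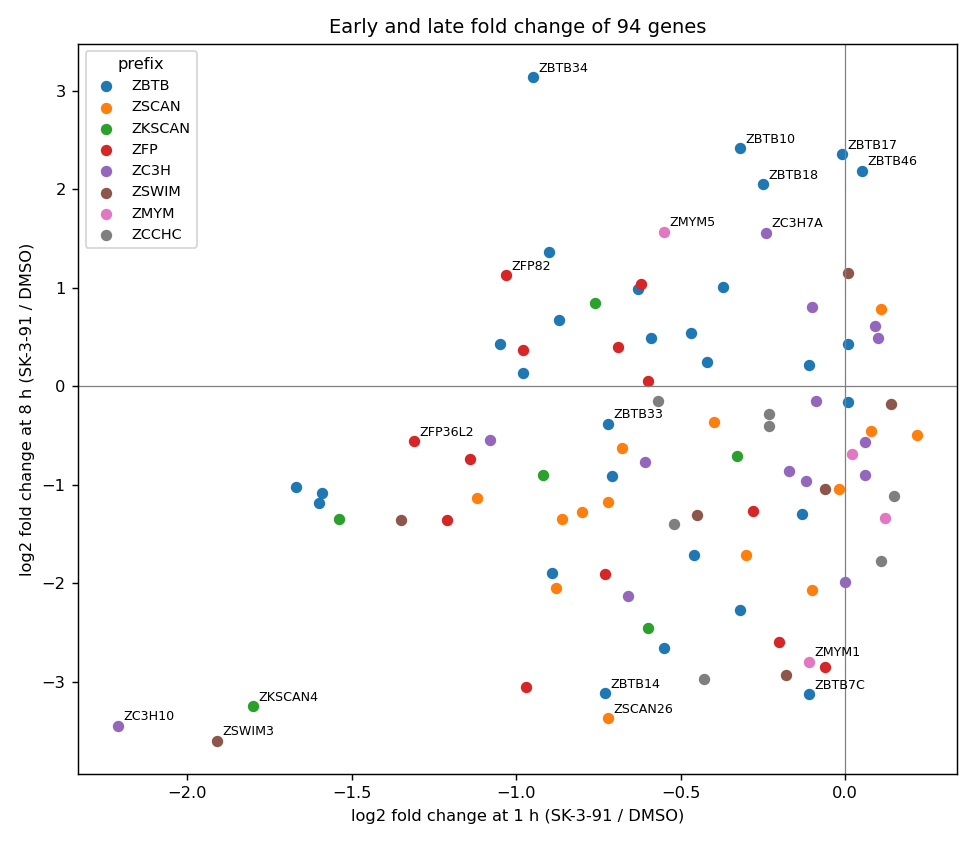
Log2 fold change at 8 h (vertical) against that at 1 h (horizontal) for each of the 94 genes, coloured by prefix. Most points lie left of 0; the upper left holds the genes that fell at 1 h and rose at 8 h, led by ZBTB34, and the lower left corner holds ZC3H10, ZSWIM3 and ZKSCAN4.

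Of the 13 ZFP genes 12 fell (92.3%, all genes 29.4%) and 0 rose (all genes 24.9%) at 1 h. That 0 is also 0 at an unadjusted p and by DESeq2 and limma. At 4 h 10 fell (76.9%, all genes 45.9%) and 3 rose (23.1%, all genes 42%). At 8 h 8 fell (61.5%, all genes 48.1%) and 4 rose (30.8%, all genes 41.3%). The ZFP medians at these times were -0.73, -1.26 and -0.74. Without scaling factors 0 rose at 4 h and 2 at 8 h. ZFP62 had 22.5, 24.2, 24.6 and 25.4 CPM in SK-3-91 and 48.6, 43.8, 48.8 and 48.2 CPM in DMSO libraries at 1 h, and 5.34, 7.72, 6.09 and 7.54 CPM in SK-3-91 and 58.3, 54.3, 53.4 and 58.0 CPM in DMSO libraries at 8 h. It fell at each time, with log2 fold changes of -0.97 ± 0.06, -2.44 ± 0.07 and -3.06 ± 0.09 and no overlap between the groups. ZFP90 fell little at 1 h and more later, with log2 fold changes of -0.20 ± 0.05, -1.75 ± 0.07 and -2.60 ± 0.08.

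All 3 genes of the ZFP36 family fell at 1 h, and their log2 fold changes at 4 and 8 h were less negative or above 0. ZFP36L2, the most abundant member, had 283, 280, 289 and 278 CPM in SK-3-91 and 729, 665, 680 and 718 CPM in DMSO libraries at 1 h. At 4 h it had 822, 793, 774 and 859 CPM in SK-3-91 and 960, 957, 945 and 973 CPM in DMSO libraries, and at 8 h 691, 730, 765 and 814 CPM in SK-3-91 and 1120, 1080, 1080 and 1130 CPM in DMSO libraries. The treated libraries stayed below the DMSO libraries throughout, with log2 fold changes of -1.31 ± 0.04, -0.24 ± 0.04 and -0.56 ± 0.04 (edgeR adjusted p = 6.9e-26, 9.4e-07 and 4e-16). Its DMSO level was itself higher at 8 h than at 1 h, by 0.66 ± 0.04. ZFP36L1 had -0.62 ± 0.06, 0.38 ± 0.06 (0.08 and not called without scaling factors) and 1.04 ± 0.06. ZFP36, tristetraprolin, named with its family after its values were seen, had -0.98 ± 0.07, 0.25 ± 0.06 and 0.37 ± 0.06, the later values turning to -0.05 and -0.06, not called, without scaling factors.

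Of the 14 ZC3H genes 6 fell (42.9%, all genes 29.4%) and 1 rose (7.14%, all genes 24.9%) at 1 h. At 4 h 10 fell (71.4%, all genes 45.9%) and 4 rose (28.6%, all genes 42%). At 8 h 10 fell (71.4%, all genes 48.1%) and 4 rose (28.6%, all genes 41.3%). The ZC3H medians at these times were -0.11, -0.79 and -0.67. Apart from ZC3H10, those that fell at 1 h were ZC3H4, ZC3H6, ZC3H7A, ZC3H8 and ZC3H12A. ZC3H4, which restricts transcription of non-coding RNA in the nucleus, had 106, 104, 109 and 106 CPM in SK-3-91 and 166, 160, 160 and 185 CPM in DMSO libraries at 1 h, 56.3, 49.9, 50.0 and 50.9 CPM in SK-3-91 and 163, 151, 154 and 158 CPM in DMSO libraries at 4 h, and 33.6, 35.6, 37.1 and 34.6 CPM in SK-3-91 and 163, 148, 150 and 156 CPM in DMSO libraries at 8 h. It stepped down at each time, with log2 fold changes of -0.66 ± 0.05, -1.60 ± 0.05 and -2.13 ± 0.06 (edgeR adjusted p = 6.1e-16, 8.3e-28 and 1.2e-30). ZC3H12A, the endonuclease Regnase-1 that cleaves inflammatory messenger RNAs, had 4.29, 4.90, 3.62 and 5.71 CPM in SK-3-91 and 8.89, 10.7, 10.3 and 9.17 CPM in DMSO libraries at 1 h. Its log2 fold change was largest at that time, -1.08 ± 0.12, and then -0.82 ± 0.13 and -0.55 ± 0.13. ZC3H8, a subunit of the little elongation complex, had -0.17 ± 0.06 at 1 h, a call that is lost without replicate 1 (-0.15), replicate 3 (-0.16) or replicate 4 (-0.15), and -0.76 ± 0.07 and -0.86 ± 0.08 later.

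ZC3H18, which links the cap-binding complex to RNA decay, had 92.3, 95.6, 112 and 87.4 CPM in SK-3-91 and 191, 184, 183 and 191 CPM in DMSO libraries at 4 h, a log2 fold change of -0.95 ± 0.06, and -0.90 ± 0.06 at 8 h. Its 1 h value was 0.06 ± 0.05 (adjusted p = 0.33). ZC3H14, a poly(A)-binding protein, had 0.06 ± 0.05 at 1 h (adjusted p = 0.34), -0.86 ± 0.05 and -0.57 ± 0.06, but exons of the other strand overlap 27.7% of its exon sequence. ZC3H13, a subunit of the m6A writer complex, rose instead, with 274, 279, 288 and 273 CPM in SK-3-91 and 167, 151, 160 and 157 CPM in DMSO libraries at 8 h, a log2 fold change of 0.81 ± 0.04. At 4 h its groups overlapped, and the value of 0.10 ± 0.04 is not called without replicate 3 (0.04) or replicate 4 (0.10) and turns to -0.20 without scaling factors. ZC3H7A had the largest rise of the ZC3H genes, -0.24 ± 0.05, 0.62 ± 0.05 and 1.56 ± 0.05; it is named as the top ZC3H rise after its values were seen.

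Of the 7 ZCCHC genes 4 fell (57.1%, all genes 29.4%) and 1 rose (14.3%, all genes 24.9%) at 1 h. At 4 h 6 fell (85.7%, all genes 45.9%) and at 8 h 5 fell (71.4%, all genes 48.1%). The ZCCHC medians at these times were -0.23, -0.74 and -1.11. Of all genes 42% rose at 4 h and 41.3% at 8 h. By edgeR 0 rose at 4 or 8 h, at an adjusted or unadjusted p, and 0 by DESeq2 or limma. ZCCHC7, the RNA-binding subunit of the TRAMP complex that tails nuclear RNA for decay, had 8.57, 10.7, 8.34 and 9.51 CPM in SK-3-91 and 36.0, 39.8, 38.8 and 36.8 CPM in DMSO libraries at 4 h. Its log2 fold change was 0.11 ± 0.07 at 1 h (adjusted p = 0.15), -2.03 ± 0.08 at 4 h and -1.78 ± 0.09 at 8 h. ZCCHC8, the scaffold of the nuclear exosome targeting complex, had 38.3, 38.1, 40.0 and 35.8 CPM in SK-3-91 and 55.2, 53.8, 54.2 and 55.7 CPM in DMSO libraries at 1 h, and 18.8, 17.9, 18.7 and 17.0 CPM in SK-3-91 and 53.4, 56.2, 58.0 and 53.7 CPM in DMSO libraries at 4 h. It was below DMSO in every library, with log2 fold changes of -0.52 ± 0.06, -1.61 ± 0.07 and -1.40 ± 0.07. ZCCHC2 had log2 fold changes of -0.43 ± 0.09, -2.70 ± 0.13 and -2.97 ± 0.16. ZCCHC17 was the early riser of the group at 0.15 ± 0.06, a call that is lost without replicate 3 (0.08), and had -0.31 ± 0.06 and -1.11 ± 0.07 later.

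Among the 7 ZSWIM genes 4 fell (57.1%, all genes 29.4%) and 0 rose (all genes 24.9%) at 1 h. At 4 h 5 fell (71.4%, all genes 45.9%) and 2 rose (28.6%, all genes 42%). At 8 h 5 fell (71.4%, all genes 48.1%) and 1 rose (14.3%, all genes 41.3%). The ZSWIM medians at these times were -0.18, -0.95 and -1.31. The 0 that rose at 1 h by edgeR is 0 at an unadjusted p and by limma and 1 by DESeq2. ZSWIM8, the substrate receptor of a ubiquitin ligase that acts on Argonaute proteins, rose at 4 and 8 h. It had 48.1, 43.7, 43.7 and 45.7 CPM in SK-3-91 and 44.5, 41.8, 46.1 and 48.0 CPM in DMSO libraries at 1 h, with overlapping groups, and 88.9, 88.1, 83.9 and 101 CPM in SK-3-91 and 46.9, 39.7, 37.8 and 38.8 CPM in DMSO libraries at 8 h. Its log2 fold changes were 0.01 ± 0.07 (adjusted p = 0.94), 0.52 ± 0.07 and 1.15 ± 0.07 (9.5e-09 and 9.8e-19).

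The 4 ZMYM genes parted. ZMYM2, known from its binding to the LSD1-CoREST complex and from a leukaemia fusion with FGFR1, had 78.5, 71.7, 69.2 and 71.9 CPM in SK-3-91 and 118, 124, 121 and 109 CPM in DMSO libraries at 8 h, with log2 fold changes of 0.02 ± 0.04 (adjusted p = 0.76), -0.30 ± 0.04 and -0.69 ± 0.05. ZMYM1 had 5.62, 8.28, 3.32 and 7.97 CPM in SK-3-91 and 48.7, 47.4, 46.5 and 38.3 CPM in DMSO libraries at 8 h, a log2 fold change of -2.80 ± 0.12 after -0.11 ± 0.08 at 1 h. ZMYM4 rose by 0.12 ± 0.04 at 1 h, a call that is lost without replicate 2 (0.10), and had -0.89 ± 0.04 and -1.34 ± 0.04 later. ZMYM5 went the other way: it had 10.3, 10.9, 10.7 and 10.3 CPM in SK-3-91 and 15.8, 15, 16 and 14.9 CPM in DMSO libraries at 1 h, and 46.4, 41.1, 43.3 and 42.0 CPM in SK-3-91 and 15.1, 14.6, 15.2 and 13.3 CPM in DMSO libraries at 8 h. Its groups did not overlap at any time and changed sides, with log2 fold changes of -0.55 ± 0.07, 0.56 ± 0.07 and 1.57 ± 0.07 (edgeR adjusted p = 5.2e-08, 1.6e-09 and 7e-24).

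The 4 members that rose at 1 h did so by 0.10 to 0.22 on the log2 scale: ZSCAN18, ZCCHC17, ZMYM4 and ZC3H7B. That count is 2 without replicate 2 of every group, 2 without scaling factors, and 7 with the RLE factors or DESeq2. At 8 h ZSCAN18, ZCCHC17 and ZMYM4 fell and ZC3H7B rose by 0.49 ± 0.04, a call that is lost without scaling factors; ZC3H7B is named here because the count is small.

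**Figure D4:**
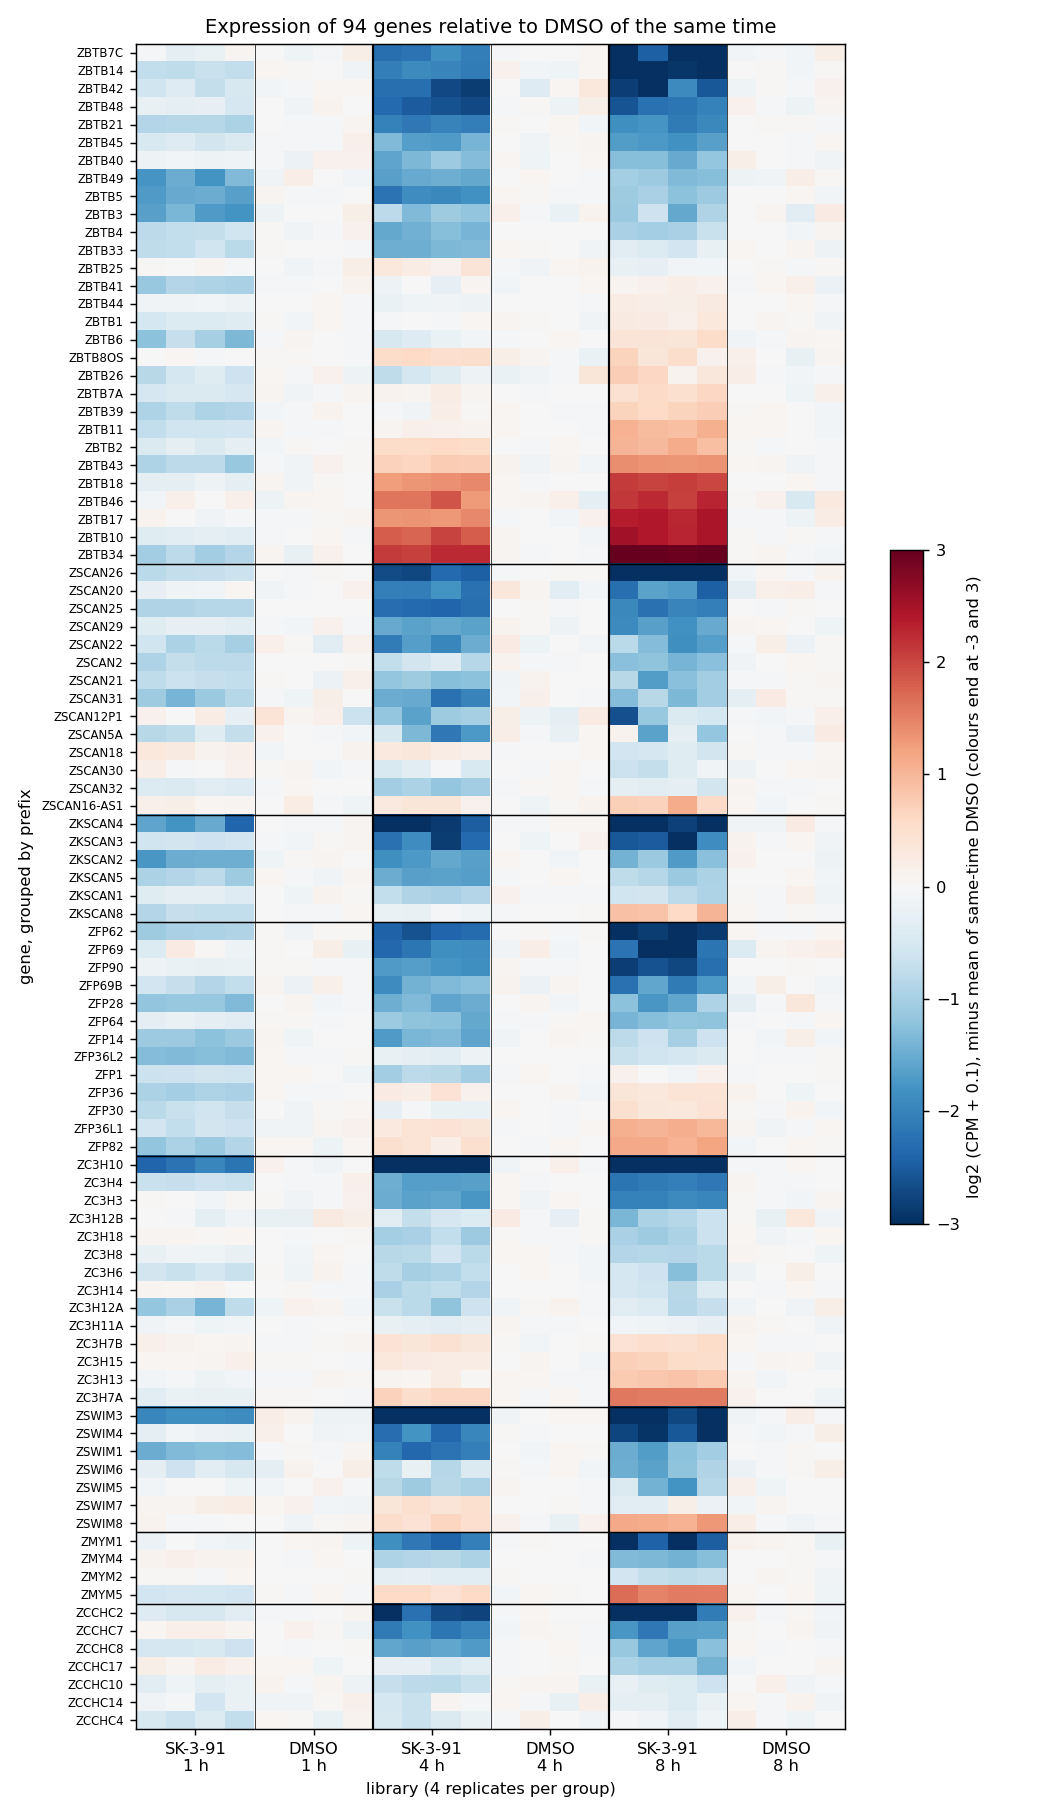
Each row is 1 of the 94 genes, grouped by prefix and ordered by the 8 h log2 fold change; each column is 1 of 24 libraries. Colour is log2 of CPM plus 0.1, minus the mean of the DMSO libraries of the same time, with colours ending at -3 and 3. Replicates within a group look alike, blue prevails in the SK-3-91 columns at 1 h, and the deepest red rows at 8 h, led by ZBTB34, are ZBTB genes.

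Across the 94 members, the log2 fold change at 1 h had a Spearman rho of 0.51 with the gene span in GENCODE 29 (shorter genes had the lower values), and of 0.17 at 4 h and 0.08 at 8 h. For the 29 ZBTB genes rho was 0.54 at 1 h, for the 352 ZNF-symbol genes 0.15 and for 9792 genes in all -0.11. Exon count gave 0.42 at 1 h and the share of the transcript in its longest exon -0.44. The ZNF-symbol genes had 0.17 and -0.24 and all genes 0.06 and -0.2 for these. The density of the AU-rich pentamer ATTTA gave -0.10 at 1 h, 0.34 at 4 h and 0.39 at 8 h. At 4 and 8 h it was weaker in the ZBTB genes (0.19 and 0.24), the ZNF-symbol genes (0.04 and 0.09) and all genes (-0.06 and 0.04). ZC3H10, ZSWIM3 and ZBTB33 hold 96.9%, 86.9% and 95.7% of their longest transcript in a single exon. For ZC3H10 that transcript has 7228 bases and the deposited gene width is 2181 bases, so the share may not describe the sequence counted. These are descriptions across genes, which share the same 24 libraries and are not independent replicates.

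**Figure D5:**
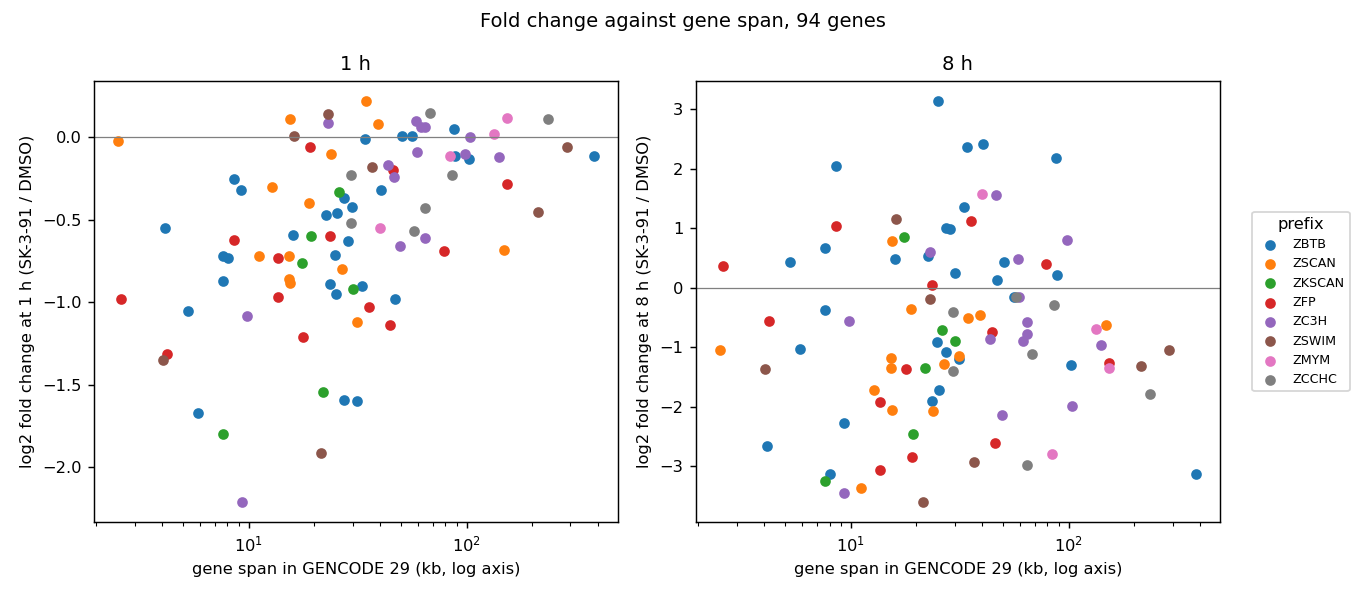
Log2 fold change of SK-3-91 over DMSO at 1 h (left) and 8 h (right) against the annotated gene span in kilobases on a log axis, 1 point for each of the 94 genes, coloured by prefix. At 1 h the points rise from lower left to upper right (Spearman rho 0.51); at 8 h they show no such slope (0.08).

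The complexes that these proteins join are set here beside all genes, of which 29.4%, 45.9% and 48.1% fell and 24.9%, 42% and 41.3% rose at 1, 4 and 8 h. Of 8 LSD1-CoREST genes 2 fell and 4 rose at 1 h, 2 fell and 4 rose at 4 h, and 2 fell and 5 rose at 8 h, with HDAC1, a deacetylase, at 825 CPM in SK-3-91 and 273 CPM in DMSO libraries at 8 h (log2 fold change 1.59 ± 0.04). Of 13 corepressor and ligase genes used by BTB and KRAB proteins 4 fell and 4 rose at 1 h, 4 fell and 6 rose at 4 h, and 6 fell and 6 rose at 8 h. In that list ATF7IP, a partner of the histone methyltransferase SETDB1, had -0.62 ± 0.05 at 1 h and 2.01 ± 0.05 at 8 h, and SETDB1 itself -1.39 ± 0.07 at 4 h. Of 17 nuclear exosome genes 7 fell and 2 rose at 1 h, 11 fell and 5 rose at 4 h, and 13 fell and 4 rose at 8 h; EXOSC3, a core subunit, averaged 4.71 CPM in SK-3-91 and 62.8 CPM in DMSO libraries at 8 h (-3.78 ± 0.11). Of 6 m6A writer genes 5 fell at 1 h, 2 fell and 3 rose at 4 h, and 2 fell and 4 rose at 8 h, led by RBM15 at 2.30 ± 0.06. Of 12 CCR4-NOT deadenylase genes 5 fell and 3 rose at 1 h, 7 fell and 4 rose at 4 h, and 7 fell and 5 rose at 8 h, with CNOT4 at -1.29 ± 0.05 at 1 h and CNOT10 at -2.14 ± 0.06 at 8 h. The medians of these lists at 8 h were 0.54, 0.07, -0.64, 0.61 and -0.23, beside -0.11 for all genes.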

How the data were processed

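RNA from 24 MOLT4 samples was sequenced as 50-base single-end reads. The authors deposited whole-number counts per gene, with gene width, and a second table of log2 values; edgeR is named in the submitters' processing notes. The second table is a log2 transform of values that follow a straight line in the deposited counts (largest gap 3.9e-07%), so it served only for an alternative limma-trend fit. An added constant in those values would draw fold changes toward 0. At 8 h the member median was -0.56 by limma-trend and -1.25 from counts without scaling factors, so the sizes are not comparable. Gene width, a deposited value in bases, scaled levels per kilobase. The aligner, counter, strand setting and dose are not given in the sources used here.

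Counts were tested in edgeR 4.0.16 (R 4.3.3) with TMM factors, a quasi-likelihood fit of the 6 groups over all 24 libraries, and Benjamini-Hochberg adjustment over 9822 genes at 0.05; the low-count filter removed 0 genes, and the lowest mean count of a member was 38.1. Since TMM takes the bulk of genes as unchanged in proportion, values are relative, not per cell. An SE is the log2 fold change divided by the square root of F. It is approximate and can be too small for large changes in genes with few counts. Counted reads were 6.863 to 14.626 megareads per library, and designs of 4 against 4 cannot give an exact permutation p below 0.0286, so single genes rest on the fit across genes. On simulated counts for the 1 h comparison over 9822 genes the fit recovered 100% of 2-fold and 99% of 1.5-fold changes. The simulation changed only a small share of genes, evenly up and down, with a fixed spread. In the data 29.4% of genes fell and 24.9% rose at 1 h, and more at 4 and 8 h. The simulation therefore checks that the code runs as meant and cannot show how well the calls here hold.

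Alternatives were RLE, upper-quartile and no scaling factors, no filter, a mean count of at least 100, a minimum fold of 1.5, a replicate block, each replicate left out, only the libraries compared, DESeq2 1.42.0, limma-trend 3.58.1, members without shared sequence, and, chosen after seeing the data, leaving out SK-3-91 8 h replicate 3. The fit without a filter is the main fit again, since the filter removed 0 genes, and so tests nothing. Same-numbered replicates did not deviate together (correlations -0.119 to 0.022 over 12 pairs), so the numbers were not taken as pairs.

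Members and lists were chosen with earlier results of these data known. Members were named by rule: per time, the 6 largest decreases and 4 largest increases past the test with at least 2 CPM in the higher group and no overlap; the largest called change per prefix and time; the 3 largest changes in each direction per step between times; a set of members of known role; and the largest called change in each complex list. Gene structure came from GENCODE 29, in which 94 members matched, and promoters from RefSeq GRCh38.p14, which held 81. Members with at least 20% of exon bases on the opposite strand or of 32-base words shared were called uncertain (8). Python 3.11.15, pandas 2.3.3, scipy 1.17.1 and matplotlib 3.10.9 were used. Protein sequences were not used here.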

Additional observations from a re-analysis of the deposited data

Results flagged for a closer look

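In 7 of 258 groups of 4 libraries looked at among the named members, 1 library lay far from the other 3; chance gives about 1 in 20 groups, or 12.9 of these. The values were 48.7 CPM for ZBTB11 and 153 CPM for ZMYM4 in SK-3-91 at 1 h, 56.3 CPM for ZC3H4, 22.5 CPM for ZC3H8 and 20.4 CPM for ZMYM5 in SK-3-91 at 4 h, 2.46 CPM for ZC3H10 in SK-3-91 at 8 h, and 43.8 CPM for ZFP62 in DMSO at 1 h.

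The response to SK-3-91 differed between times by a test of the difference in the same edgeR model. From 1 to 4 h the log2 fold change moved by -2.27 ± 0.28 in ZSWIM3, -2.27 ± 0.17 in ZCCHC2 and -2.24 ± 0.14 in ZBTB48, and by 3.11 ± 0.11 in ZBTB34, 2.18 ± 0.08 in ZBTB10 and 1.60 ± 0.10 in ZBTB43. From 4 to 8 h it moved by -1.10 ± 0.15 in ZBTB14, -1.0 ± 0.28 in ZBTB7C and -0.86 ± 0.12 in ZFP90, and by 1.02 ± 0.09 in ZBTB33, 1.01 ± 0.10 in ZMYM5 and 1.01 ± 0.08 in ZBTB17. The SEs are of 4 libraries in each of the 4 groups, and the adjusted p ranged up to 0.0017, for ZBTB7C.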

How the results depend on the processing

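Over 129 member and time pairs, 1733 of 1794 values under alternatives kept their direction and side of the threshold. Of the rest 24 lost the call, 13 gained it and 24 turned sign, the last in 9 pairs. The cause was not tested. These counts do not cover the minimum fold of 1.5, a stricter test that removed many calls. They do cover the fit without a filter, which could not differ because the filter removed 0 genes. With the replicate block the counts were 65 and 4, 67 and 23, and 62 and 27 lower and higher at 1, 4 and 8 h, as without it, and no sample correlated best with its own number. A minimum fold of 1.5 left 28 members lower and 0 higher at 1 h, 6 higher at 4 h and 17 higher at 8 h, 32 lower and 16 higher from 1 to 4 h, 4 lower and 11 higher from 4 to 8 h, 0 and 0 in DMSO at 8 against 1 h, and among complex genes 1, 12 and 17 lower and 0, 9 and 15 higher at 1, 4 and 8 h. RLE factors and DESeq2 each gave 7 members higher at 1 h, a ZBTB median of 0.31 at 8 h and a ZMYM median of -0.55 at 4 h.

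Without scaling factors 2 members were higher at 1 h and 12 at 4 h, and 6 and 13 complex genes; the medians at 4 h were -0.44 (ZBTB), -1.60 (ZSCAN), -1.94 (ZKSCAN), -1.56 (ZFP), -1.09 (ZC3H), -1.25 (ZSWIM), -0.89 (ZMYM) and -1.04 (ZCCHC), and at 8 h -0.21, -1.59, -1.56, -1.17, -1.10, -1.74, -1.45 and -1.54 in that order. Limma-trend gave 2 and 12 members and 6 and 13 complex genes higher at 1 and 4 h, and medians of -0.41 (ZBTB), -0.27 (ZSCAN) and -0.51 (ZFP) at 1 h, -0.27 (ZBTB), -0.61 (ZSCAN), -1.06 (ZKSCAN), -0.54 (ZFP), -0.55 (ZC3H), -0.24 (ZSWIM) and -0.82 (ZMYM) at 4 h, and -0.18 (ZBTB), -0.61 (ZSCAN), -0.44 (ZFP), -0.35 (ZSWIM) and -1.28 (ZMYM) at 8 h. Upper-quartile factors gave 0.05 (ZBTB), -1.32 (ZSCAN), -0.83 (ZC3H), -1.18 (ZMYM) and -1.28 (ZCCHC) at 8 h, and -1.70 (ZKSCAN) and -0.66 (ZMYM) at 4 h. A mean count of at least 100 gave -0.40 at 1 h and -1.06 at 4 h (ZSCAN), and -0.93 (ZFP), -2.11 (ZSWIM), -1.19 (ZCCHC) at 4 h and -1.26 (ZCCHC) at 8 h. Without members of shared sequence or exons the medians were -0.68, -1.82 and -1.35 (ZSCAN at 1, 4 and 8 h), -0.81 (ZC3H at 8 h) and -0.75 (ZSWIM at 4 h). Leaving out each replicate gave 2 to 4 members and 8 to 11 complex genes higher at 1 h, and medians of -1.31 to -1.16 (ZFP, 4 h), -0.17 to -0.06 (ZC3H, 1 h), -0.22 to -0.09 (ZSWIM, 1 h) and -0.83 to -0.69 (ZCCHC, 4 h).

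Signs turned without scaling factors, and under limma-trend, in ZBTB1 at 8 h (-0.18 and -0.16), ZBTB11 at 4 h (-0.18 and -0.16), ZBTB7A at 4 h (-0.18 and -0.16), ZC3H13 at 4 h (-0.20 and -0.19), ZSCAN18 at 4 h (-0.05 and -0.04), ZMYM2 at 1 h (-0.01 and -0.01) and ZSWIM8 at 1 h (-0.02 and -0.01). Values near 0 also turned in ZSWIM8 at 1 h without replicate 1 (-0.03) or 2 (-0.01), in ZBTB17 at 1 h (0.03 with RLE, DESeq2, or without replicate 3 or 4), and in ZBTB1 at 4 h (0.03 with RLE, DESeq2 or without replicate 1, and 0.01 with only the libraries compared). Depth limits the scarcest values, such as ZSWIM3 and ZC3H10 in treated libraries.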
